A study of Mus musculus with 4 samples.

Results

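The genes described here are 7 genes of the mouse MHC class I presentation pathway and the interferon-induced gene Ifi27, which is not a presentation gene. The 7 are the heavy chain genes H2-K1, H2-D1 and H2-T23, the light chain gene B2m, the peptide transporter genes Tap1 and Tap2, and the tapasin gene Tapbp. All 8 genes were chosen by name, are among the 19074 genes listed in the count tables, and were read in every library of an islet series. Counts given out of 8 include Ifi27. The counts come from 2 Sel1L knockout libraries (Sel1LIns1 mice, in which Cre recombinase made from the insulin gene Ins1 acts on floxed Sel1L) and 2 wild type libraries (Sel1Lf/f mice, which carry the floxed alleles without Cre), all of C57BL/6 mice whose age the sample labels give as 7 weeks and the series text as 5 weeks. Islets of both genotypes were kept overnight in RPMI medium after isolation, dissociated with trypsin and loaded for 10x Genomics 3′ single-cell sequencing, where each captured RNA molecule is counted once through its unique molecular identifier (UMI). The SEL1L protein partners the ubiquitin ligase HRD1 in clearing misfolded proteins from the endoplasmic reticulum, and the series asked what its loss does to beta cells. No library has Cre with intact Sel1L, so Cre and the deletion cannot be told apart, and the labels do not say whether the libraries of a genotype are separate animals, so p-values measure only the spread between these libraries.

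MHC class I molecules sit on the surface of almost every nucleated cell and display peptides cut from proteins made inside the cell. A heavy chain folds in the endoplasmic reticulum with the light chain beta-2-microglobulin, receives a peptide that the TAP1-TAP2 transporter has pumped in and tapasin has helped to load, and leaves for the surface, where CD8+ T cells read it. In pancreatic islets this display is known for its part in the attack of T cells on beta cells in type 1 diabetes, and interferons are known to raise most genes of the pathway.

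There were 4337 and 2483 knockout cells (160208775 and 99156230 UMIs in all) and 5951 and 5841 wild type cells (215467602 and 228515309 UMIs). Beta cells were taken as cells with at least 10% of UMIs from Ins1 and Ins2, alpha cells as those with at least 3% from Gcg and delta cells as those with at least 3% from Sst, both with insulin under 5%, and macrophages and endothelial cells by UMIs of at least 5 of 10 markers. This gave 2464 and 1386 knockout and 3733 and 3674 wild type beta cells, 80 and 56 knockout and 121 and 112 wild type macrophages, and 151 and 154 knockout and 151 and 169 wild type endothelial cells. Mafa, Slc2a2, Ucn3 and G6pc2 led the beta class beside insulin, C1qb, C1qc and Lyz2 were among the leading genes of the macrophages, and Plvap, Kdr, Emcn and Flt1 among those of the endothelial cells. The macrophages were also led by MHC class II genes. No cell met the T cell rule, of whose 10 markers 5 are listed in the files, or the B cell rule, of whose 10 markers 6 are listed. Any pair of libraries shared 1 to 9 cell barcodes.

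The targeted gene, Sel1l, was at 43.5 and 44.4 CPM in knockout beta cells, against 34.1 and 32.4 CPM in wild type beta cells, where CPM are UMIs scaled to a common total. Without hormone genes in the total it was at 87.2 and 92.3 CPM in knockout and 126 and 124 CPM in wild type beta cells. Relative to the median gene its change was -0.50 on the log2 scale (edgeR's quasi-likelihood test, adjusted p = 0.00130), a sign that turned to 0.40 per total UMIs. Reads of a 3′ assay fall at the end of a transcript and may lie outside the deleted part, so the gene does not check the labels.

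Insulin took 40.7% and 44.5% of UMIs in knockout beta cells, against 67.5% and 68.1% in wild type beta cells. This shifts the level of every other gene in CPM. Changes between genotypes are therefore given relative to the median gene (TMM scaling), and the same change per total UMIs or per cell is given where its sign differs. In beta cells the median gene itself stood 0.91 higher on the log2 scale in knockout libraries under either of those scalings. Per cell it stood 0.78 higher in alpha cells, 0.68 in delta cells, 0.90 in macrophages and 0.53 in endothelial cells, and cells of these other 4 classes held more UMIs in the knockout libraries. Per total UMIs it stood 0.22 higher in alpha and 0.15 higher in delta cells.

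In the mouse genome (GRCm38, GENCODE vM21) 6 of the 8 genes lie on chromosome 17 in or near the major histocompatibility complex. H2-K1 (ENSMUSG00000061232) spans 33996017 to 34000347 on the minus strand, H2-D1 (ENSMUSG00000073411) 35262730 to 35267499 on the plus strand, and H2-T23 (ENSMUSG00000067212) 36029773 to 36032855 on the minus strand. Tapbp (ENSMUSG00000024308) spans 33915899 to 33929292, Tap1 (ENSMUSG00000037321) 34187553 to 34197225 and Tap2 (ENSMUSG00000024339) 34203527 to 34216321, all on the plus strand. B2m (ENSMUSG00000060802) lies on the plus strand of chromosome 2, 122147686 to 122153083, and Ifi27 (ENSMUSG00000064215) on the plus strand of chromosome 12, 103434211 to 103440239. All 8 are protein coding. B2m overlaps Patl2, Tap1 overlaps Psmb9, Tap2 overlaps Gm20496 and Gm15821, and H2-T23 overlaps A930015D03Rik on the opposite strand, and Tapbp overlaps Zbtb22 on its own strand and Gm19412 on the other. Strand handling in the counting is not given in the sources used here, so reads in those overlaps cannot be assigned with certainty. H2-K1 and H2-D1 share long near-identical stretches with each other and with the H2-Q genes, so their separate counts are uncertain where reads fall in such stretches.

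Because the light chain and the heavy chains differed in these cells, the 250 bases before the transcription start of H2-K1 and B2m are shown (RefSeq, GRCm38.p6, 5′ to 3′ on the gene's strand). Capitals mark matches to the kappaB motif bound by NF-kappaB, the interferon-stimulated response element (ISRE) and the CCAAT box bound by NF-Y.
H2-K1 (chr17:34000348-34000597, minus strand): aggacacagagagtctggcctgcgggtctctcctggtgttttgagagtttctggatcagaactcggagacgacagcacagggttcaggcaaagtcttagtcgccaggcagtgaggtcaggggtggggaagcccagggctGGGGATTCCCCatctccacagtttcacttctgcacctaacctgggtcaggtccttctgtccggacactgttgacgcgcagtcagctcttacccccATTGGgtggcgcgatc
B2m (chr2:122147437-122147686, plus strand): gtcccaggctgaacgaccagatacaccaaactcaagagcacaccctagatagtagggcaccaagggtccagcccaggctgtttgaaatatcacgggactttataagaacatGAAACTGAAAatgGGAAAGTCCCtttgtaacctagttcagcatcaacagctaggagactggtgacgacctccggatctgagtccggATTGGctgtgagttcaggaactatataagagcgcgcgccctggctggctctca
The RefSeq table held an upstream window for 6 of the 8 genes, and none for Tap2 and Ifi27. On either strand, a kappaB motif was found in the windows of H2-K1 (ggggattccc, beginning 111 bases before the start, overlapped by a second match 1 base on), H2-D1 (the same letters, 171 bases before the start) and B2m (ggaaagtccc, 126 bases before the start), while 7.25% of all 32851 windows of this length held one. The ISRE letters GAAANNGAAA were found in B2m (gaaactgaaa, 139 bases before the start) and H2-T23 (tttctctttc, 124 bases before the start), and in 2.98% of all windows. Other forms of the ISRE were not searched, so the windows of H2-K1 and H2-D1, without a match, may still hold one. The CCAAT box was found in all 6 windows and in 33.9% of all windows. The interferon-gamma motif GAS, TTCNNNGAA, was found in none of the 6 and in 7.02% of all windows. These are matches of letters only.

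In CPM of all UMIs, endocrine cells held less RNA of the classical heavy chains than macrophages and endothelial cells. Beta cells held the least among the endocrine classes on this scale, which insulin lowers most in them. Per cell, beta cells held the most H2-K1 and H2-D1 of the endocrine classes. H2-K1 averaged 10.9 UMIs per knockout and 8.23 per wild type beta cell. The averages were 8.19 and 5.10 in alpha, 7.35 and 5.38 in delta and 8.50 and 5.01 in PP cells. H2-K1, which encodes the classical heavy chain K, was at 235 and 202 CPM in knockout beta cells and 170 and 160 CPM in wild type beta cells. In macrophages it was at 936 and 946 CPM in knockout and 1094 and 878 CPM in wild type libraries, and in endothelial cells at 1336 and 1489 CPM in knockout and 1719 and 976 CPM in wild type libraries. Every beta value lay below every macrophage and endothelial value. Over all 4 libraries the H2-K1 level ran from endothelial cells (1380.0 ± 312 CPM, SD, n = 4) and macrophages (964 ± 92.2) through delta (412 ± 29.1), Schwann (321 ± 64.9), alpha (270 ± 14.7), mesenchymal (256 ± 89.5) and PP cells (253 ± 37.2) to beta cells (192 ± 34.1), and only macrophages and delta cells were neighbours whose ranges did not overlap.

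H2-D1, the second classical heavy chain, was at 211 and 174 CPM in knockout and 117 and 126 CPM in wild type beta cells. Macrophages held 1662 and 1585 CPM in knockout and 2124 and 2034 CPM in wild type libraries. Its order was macrophage, endothelial, Schwann (1123 ± 250 CPM, SD, n = 4), delta (421 ± 38.8), mesenchymal, alpha (260 ± 11.5), PP (240 ± 12.4) and beta (157 ± 43.9), with gaps between the ranges of Schwann and delta cells and between those of PP and beta cells. H2-T23, the nonclassical heavy chain Qa-1 that NKG2A receptors of natural killer cells read, was less graded. It was at 37.4 and 29.9 CPM in knockout and 16.3 and 15.4 CPM in wild type beta cells, and at 106 and 136 CPM in knockout and 75.5 and 88.6 CPM in wild type macrophages. Delta cells, at 111 and 94.9 CPM in knockout and 83.1 and 81.0 CPM in wild type libraries, overlapped with the macrophages in H2-T23, and each class overlapped with its neighbour in the order of levels.

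B2m separated endocrine from other cells most widely among these genes. Its level was 5.92 and 8.01 CPM in knockout and 12.1 and 11.2 CPM in wild type beta cells, from 681 and 594 UMIs in knockout and 2161 and 2142 UMIs in wild type libraries. Macrophages held 1733 and 1878 CPM in knockout and 2357 and 1930 CPM in wild type libraries, and endothelial cells 950 and 1253 CPM in knockout and 1231 and 733 CPM in wild type libraries. The mean over 4 libraries was 1974 ± 268 CPM in macrophages (SD, n = 4), 1042 ± 247 in endothelial, 537 ± 65.6 in Schwann and 406 ± 137 in mesenchymal cells. Delta cells followed at 29.6 ± 2.58 CPM, alpha cells at 26.0 ± 7.61, PP cells at 14.1 ± 4.62 and beta cells at 9.31 ± 2.86. A gap lay between the ranges of all 4 non-endocrine and all 4 endocrine classes, and each endocrine class overlapped with the next.

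**Figure D1:**
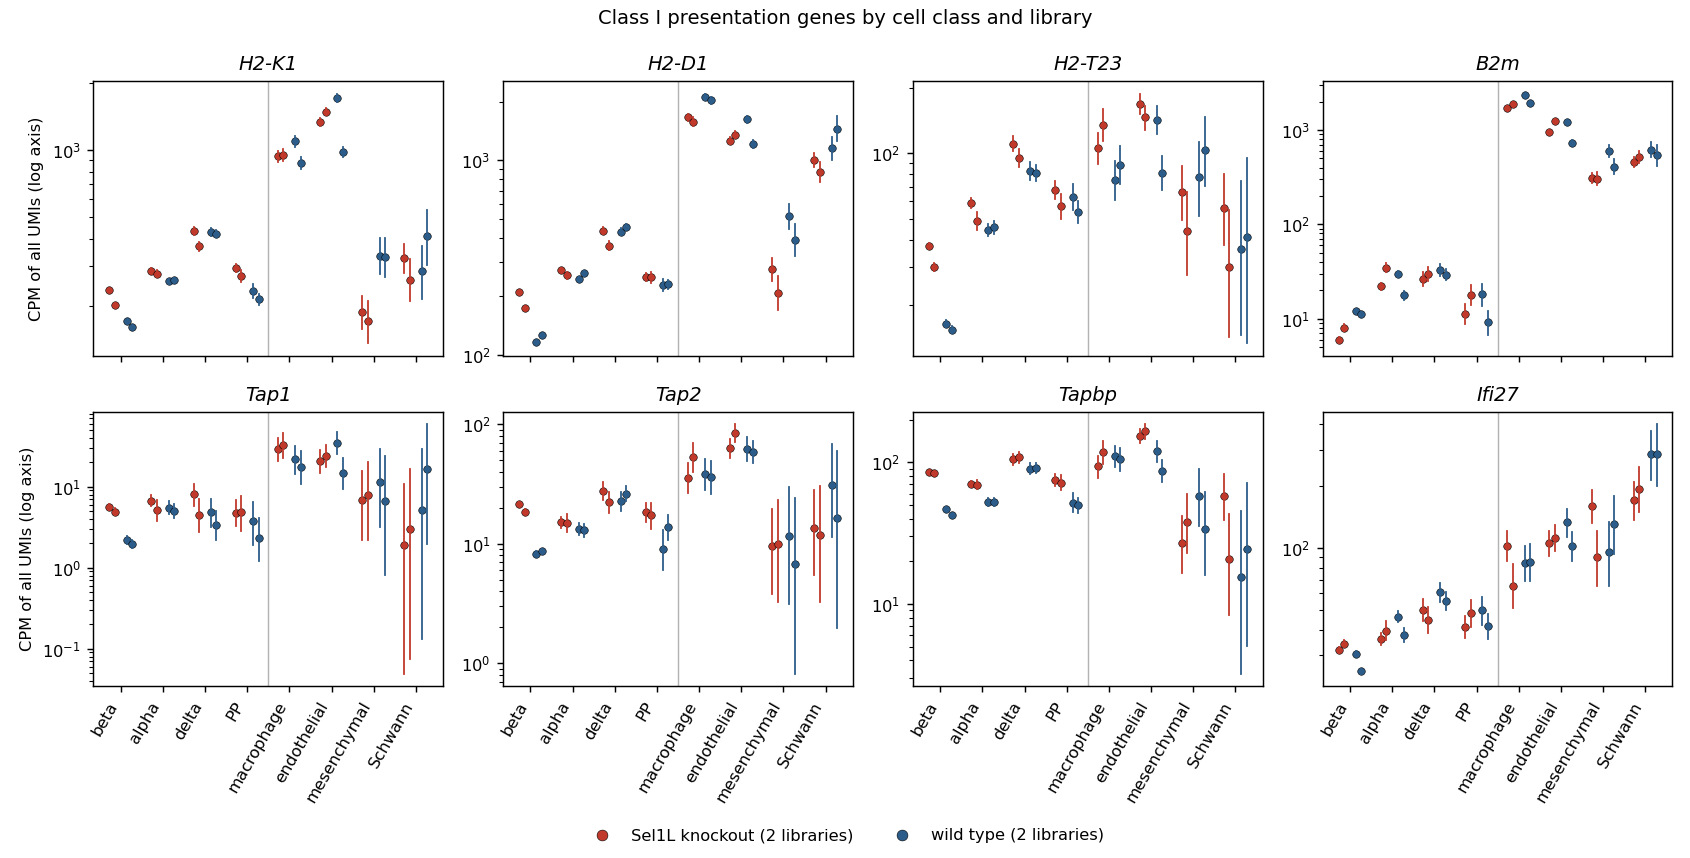
Level of each of the 8 genes in 8 cell classes, in CPM of all UMIs on a log axis, for each Sel1L knockout (red) and wild type (blue) library, with exact 95% Poisson intervals that cover counting error only. The vertical line divides endocrine from other classes: B2m is at 34.6 CPM or less left of it and at 305 CPM or more right of it, while Tapbp spans a far narrower range.

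Tap1 and Tap2, the 2 chains of the peptide transporter, were sparse in all classes. Tap1 was at 5.62 and 4.91 CPM in knockout and 2.20 and 1.97 CPM in wild type beta cells, against 29.1 and 32.7 CPM in knockout and 21.9 and 17.7 CPM in wild type macrophages. Tap2 was at 21.4 and 18.5 CPM in knockout and 8.25 and 8.63 CPM in wild type beta cells, against 35.7 and 53.0 CPM in knockout and 38.2 and 36.3 CPM in wild type macrophages. On this scale no beta value reached the lowest macrophage value of either gene. Per cell, Tap2 averaged 0.994 UMIs in knockout and 0.422 in wild type beta cells, against 0.797 and 0.377 in macrophages. In Schwann cells Tap1 rested on 1 or 2 UMIs per library, and its level there cannot be placed.

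Tapbp, which encodes the loading chaperone tapasin, differed least between endocrine and other cells. It was at 84.7 and 83.6 CPM in knockout and 46.9 and 42.1 CPM in wild type beta cells, and at 93.3 and 117 CPM in knockout and 110 and 105 CPM in wild type macrophages. Beta cells (64.3 ± 23 CPM, SD, n = 4), PP cells (61.9 ± 13.2) and alpha cells (61.0 ± 10.0) stood above mesenchymal (39.0 ± 13.2) and Schwann cells (29.7 ± 19.2), with overlapping ranges at each step. Ifi27, a small mitochondrial protein gene that interferon alpha raises, ranked the classes differently. It was highest in Schwann cells (234 ± 60.7 CPM, SD, n = 4), followed by mesenchymal (119 ± 32.8), endothelial (113 ± 13.7) and macrophage (84.2 ± 14.9) classes. Delta (52.6 ± 6.90), PP (45.1 ± 4.36), alpha (39.9 ± 4.51) and beta cells (30.4 ± 3.87) came last in CPM of all UMIs, and beta cells did not overlap with alpha cells. The order of the endocrine classes depends on this scale. Per cell, Ifi27 averaged 1.66 UMIs in knockout and 1.38 in wild type beta cells. The averages were 1.09 and 0.827 in alpha, 0.867 and 0.734 in delta and 1.35 and 1.03 in PP cells.

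Set against the heavy chains, the light chain was scarce in endocrine cells. A UMI of a 3′ assay counts a molecule whatever its length, but capture can differ between genes, so the ratio is compared across classes and is not a ratio of proteins. There were 1.33 and 2.13 B2m UMIs per 100 UMIs of H2-K1 and H2-D1 in knockout beta cells, against 4.22 and 3.92 in wild type beta cells. Alpha cells held 3.94 and 6.47 in knockout and 5.90 and 3.37 in wild type libraries, and delta cells 3.06 and 4.07 in knockout and 3.83 and 3.34 in wild type libraries. Knockout beta cells fell below wild type beta cells with no overlap, while in alpha and delta cells the genotypes overlapped. Macrophages held 66.7 and 74.2 per 100 in knockout and 73.2 and 66.3 in wild type libraries, and endothelial cells 36.6 and 44.1 in knockout and 36.8 and 33.5 in wild type libraries, so that both genotypes overlapped in each of these classes. The balance of the 2 classical heavy chains also differed by class: per 100 H2-K1 UMIs there were 89.8 and 85.8 of H2-D1 in knockout and 68.6 and 78.9 in wild type beta cells, 178 and 167 in knockout and 194 and 232 in wild type macrophages, and 308 and 334 in knockout and 405 and 356 in wild type Schwann cells.

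**Figure D2:**
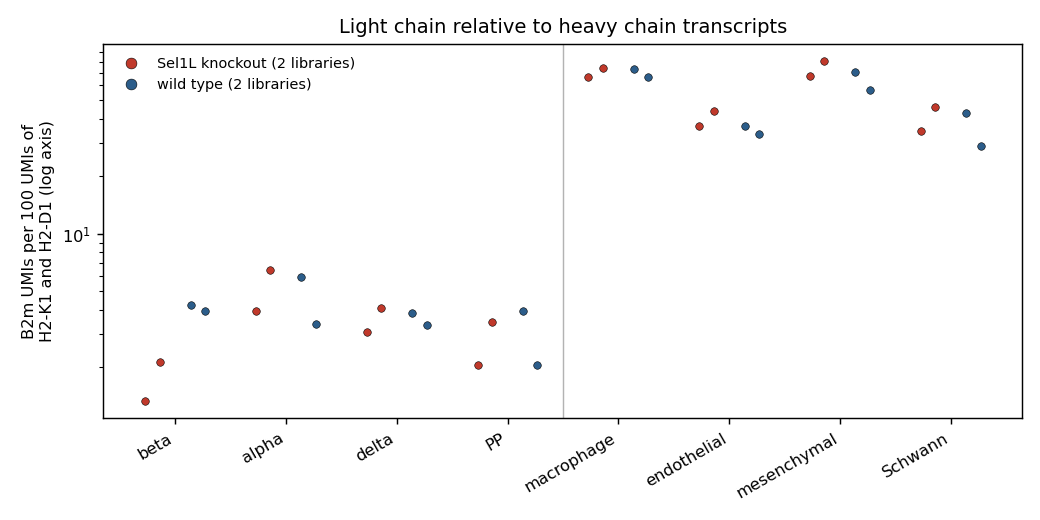
B2m UMIs per 100 UMIs of H2-K1 and H2-D1 (log axis) in each Sel1L knockout (red) and wild type (blue) library, by cell class; each point is 1 library's summed cells. The endocrine classes lie between 1.33 and 6.47 and the other classes between 28.9 and 80.5, and the knockout beta values of 1.33 and 2.13 lie below the wild type beta values of 4.22 and 3.92.

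Free RNA from other cells was gauged with genes that endocrine cells do not make. C1qb, a complement gene of macrophages, was at 0.356 and 0.243 CPM in knockout and 0.190 and 0.225 CPM in wild type beta cells. Beta cells held 1661 and 3300 B2m UMIs per 100 C1qb UMIs in knockout and 6356 and 4981 in wild type libraries, against 36.5 and 38.2 in knockout and 58.3 and 42.6 in wild type macrophages. The same ratio to Plvap, a gene of fenestrated endothelium, was 1661 and 2048 in knockout and 8312 and 11900 in wild type beta cells, against 36.3 and 44.0 in knockout and 54.9 and 32.8 in wild type endothelial cells. Both ratios were higher in beta cells than in the class that the marker stands for. C1qa, another macrophage marker, was not used, since it stood at 20.8 and 19.1 CPM in knockout and 23.1 and 18.0 CPM in wild type beta cells. In macrophages C1qa averaged 3549 CPM and B2m 1974 CPM. In beta cells B2m thus lay above C1qb but below C1qa, so the outcome depends on the marker chosen. C1qc and Lyz2 averaged 0.146 and 0.503 CPM in beta cells, near the 0.254 CPM of C1qb, against 2589 and 6678 CPM in macrophages. Among these markers C1qa alone was thus high in beta cells, and why was not tested. C1qa also made up most of the macrophage marker sum that follows. All 10 macrophage markers together summed to 22.4 and 20.5 CPM in knockout and 24.1 and 19.3 CPM in wild type beta cells, and all 10 endothelial markers to 8.42 and 8.26 CPM in knockout and 3.09 and 3.36 CPM in wild type beta cells, where Fcgr1 was at 0 in knockout library 2 and wild type library 1 and Adgre1 in wild type library 2. The 10 mesenchymal markers summed to 1.21 and 1.27 CPM in knockout and 6.83 and 7.40 CPM in wild type beta cells, lower in knockout cells as B2m was, and the 10 Schwann markers to 9.24 and 8.94 CPM in knockout and 3.59 and 2.90 CPM in wild type beta cells. Of the mesenchymal markers, Lum was at 0 in knockout library 2, Pdgfra in wild type library 1 and Cspg4 in wild type library 2. From 1 to 4 Schwann markers were at 0 in each library, Cdh19 in knockout library 1, Foxd3 and Kcna1 in knockout library 2, Kcna1 in wild type library 1, and Sox10, Foxd3, Kcna1 and S100b in wild type library 2. The part of free RNA from macrophages, endothelial, mesenchymal or Schwann cells in the B2m level and change was not tested.

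The share of cells with a B2m UMI told the same order. It was 20.7% and 27.7% of knockout and 35.7% and 39.2% of wild type beta cells, beside 1.58% and 1.30% of knockout and 0.911% and 1.17% of wild type beta cells with a C1qb UMI as background. With every cell thinned to 2000 UMIs, the B2m share was 1.19% and 1.57% in knockout and 2.44% and 2.24% in wild type beta cells, against 94.9% and 95.1% in knockout and 97.1% and 95.3% in wild type macrophages. Thinning left out 11 and 5 knockout and 2 and 3 wild type beta cells, and 4 and 1 knockout and 7 and 4 wild type macrophages. H2-K1, by contrast, was found in 99.4% and 98.8% of knockout and 98.8% and 99.4% of wild type beta cells before thinning. Median depth per beta cell was 43852 and 51153 UMIs in knockout and 46885 and 49814 UMIs in wild type libraries.

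Averaged over the genotypes, nearly all 8 genes were lower in endocrine cells than in macrophages or endothelial cells (edgeR's quasi-likelihood test on summed UMIs with the library as a block, Benjamini-Hochberg adjusted p under 0.05 over all genes). Beta cells were lower than macrophages in 7 of 8 genes, where 26.6% of all 14225 genes tested were lower, and lower than endothelial cells in 7 of 8, where 31.3% of all genes were lower. Alpha cells were lower than macrophages in 8 of 8 (31.7% of all genes) and lower than endothelial cells in 8 of 8 (37.4%). Delta cells were lower than macrophages in 8 of 8 (33.2%) and lower than endothelial cells in 6 of 8 (37.8%). The median difference of the 8 genes between beta cells and macrophages was -1.37 on the log2 scale, beside 0.55 over all genes, and between beta and endothelial cells -1.28, beside 0.39.

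B2m had the largest difference in each of these 6 contrasts. It was 122-fold lower in beta cells than in macrophages (log2 difference -6.93, SE 0.0822) and 43.8-fold lower than in endothelial cells (-5.45, SE 0.0957). Alpha cells were 68.9-fold lower in B2m than macrophages (-6.11, SE 0.0954) and delta cells 76.4-fold (-6.26, SE 0.0811). H2-D1 was 6.69-fold and H2-K1 2.82-fold lower in beta cells than in macrophages. These contrasts of B2m, H2-D1 and H2-K1 kept their sign and call under all 17 alternatives run. The folds are those of TMM scaling, and their size moved with the alternative. Between beta cells and macrophages the log2 difference ran from -7.78 to -5.88 for B2m, from -3.59 to -1.70 for H2-D1 and from -2.34 to -0.45 for H2-K1.

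Tapbp was an exception. Between beta cells and macrophages its difference was 0.05 (SE 0.0874, edgeR adjusted p = 0.598), and it was higher in beta than in endothelial cells by 0.32 (SE 0.0748, adjusted p = 8.8e-04), as were 45.8% of all genes, a sign that turned to -1.06 per total UMIs. Delta and endothelial cells differed by -0.05 in Tapbp (adjusted p = 0.608) and by -0.19 in H2-T23 (adjusted p = 0.0572). Per cell, which compares classes of unequal RNA content, Tap2 and Ifi27 turned to 0.26 and 0.40 between beta cells and macrophages, since a beta cell held more UMIs in all.

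**Figure D3:**
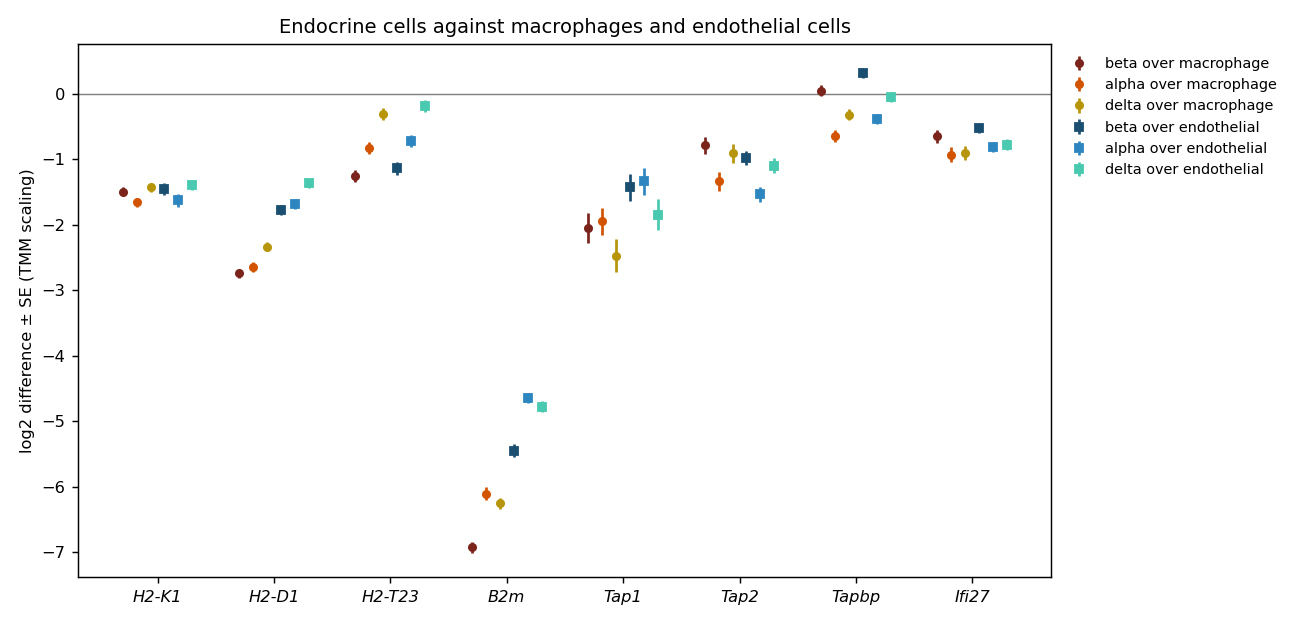
Log2 difference of each gene (points, with SE) between beta, alpha or delta cells and macrophages (circles) or endothelial cells (squares), averaged over genotypes with the library as a block. B2m lies between -6.93 and -4.64 in the 6 contrasts, and Tapbp between -0.64 and 0.32.

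In beta cells the knockout moved these genes in different directions relative to the median gene. The test called 2 of the 8 higher, where 20.4% of all 14862 genes were called higher, and 3 of the 8 lower, where 21.3% were called lower, so that 5 of 8 changed where 41.8% of all genes did. The count alone is therefore near the background. Their median change was -0.11, beside 0.00215 over all genes.

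The light chain fell most. With hormone genes left out of the total, B2m was at 11.9 and 16.6 CPM in knockout beta cells, against 44.7 and 43.0 CPM in wild type beta cells. Per cell there were 0.276 and 0.429 B2m UMIs in knockout and 0.579 and 0.583 in wild type beta cells. Both knockout libraries lay below both wild type libraries on every scale, and the 2 knockout libraries differed more from each other than did the 2 wild type libraries. B2m was 3.15-fold lower in the fit (log2 change -1.66, SE 0.143, edgeR adjusted p = 4.1e-04), with -0.75 per total UMIs and -0.74 per cell, and it was called lower under all 19 alternatives, where its change ran from -1.89 to -0.74. The change was -1.40 without knockout library 1 and -1.89 without knockout library 2, and -1.32 with mixed cells kept.

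Relative to the median gene, the heavy chains had smaller changes than the light chain. Without hormone genes in the total, H2-K1 was at 472 and 420 CPM in knockout and 629 and 613 CPM in wild type beta cells. H2-K1 was called lower relative to the median gene (log2 change -0.50, SE 0.0804, edgeR adjusted p = 0.00365), but the sign turned to 0.41 both per total UMIs and per cell, with 11.0 and 10.8 H2-K1 UMIs per knockout and 8.14 and 8.32 per wild type beta cell. So a knockout beta cell held more H2-K1 UMIs, and fewer as a share of its non-hormone RNA. H2-D1, at 424 and 360 CPM without hormone genes in knockout and 432 and 484 CPM in wild type beta cells, was not called by edgeR (-0.24, adjusted p = 0.108). It was called lower by DESeq2 (-0.25, adjusted p = 0.0460) and without wild type library 1 (-0.35, edgeR adjusted p = 0.0191), and its sign turned to 0.66 per total UMIs and per cell, both called. H2-T23, at 74.9 and 62.0 CPM in knockout and 60.4 and 58.9 CPM in wild type beta cells on the same scale, was not called relative to the median gene (0.18, edgeR adjusted p = 0.157), other than without knockout library 2 (0.32, adjusted p = 0.0331). It was called higher per total UMIs (1.09, edgeR adjusted p = 4.0e-06) and per cell (1.08, adjusted p = 6.8e-19). With 2 libraries per genotype the size of these p-values is not read as strength.

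The transporter rose on every scaling. Tap1 was at 11.3 and 10.2 CPM without hormone genes in knockout beta cells, against 8.16 and 7.54 CPM in wild type beta cells. Tap2 was at 42.9 and 38.4 CPM in knockout and 30.5 and 33.1 CPM in wild type beta cells on that scale, and for both genes each knockout library lay above each wild type library. The log2 change was 0.43 for Tap1 (SE 0.103, edgeR adjusted p = 0.0155) and 0.34 for Tap2 (SE 0.0834, adjusted p = 0.0185), and per total UMIs it was 1.34 and 1.24. Without knockout library 1 the change was 0.37 for Tap1 and 0.27 for Tap2 and neither was called.

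Tapbp stood at 170 and 174 CPM without hormone genes in knockout and 174 and 161 CPM in wild type beta cells. These ranges overlapped, and its change was 0.02 (SE 0.0615, edgeR adjusted p = 0.838). Ifi27 was at 63.7 and 71.1 CPM in knockout and 113 and 96.1 CPM in wild type beta cells on the same scale. It was called lower relative to the median gene (log2 change -0.65, SE 0.0888, adjusted p = 0.00188), with no overlap between the genotypes, but the change turned to 0.24 per total UMIs and 0.26 per cell.

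**Figure D4:**
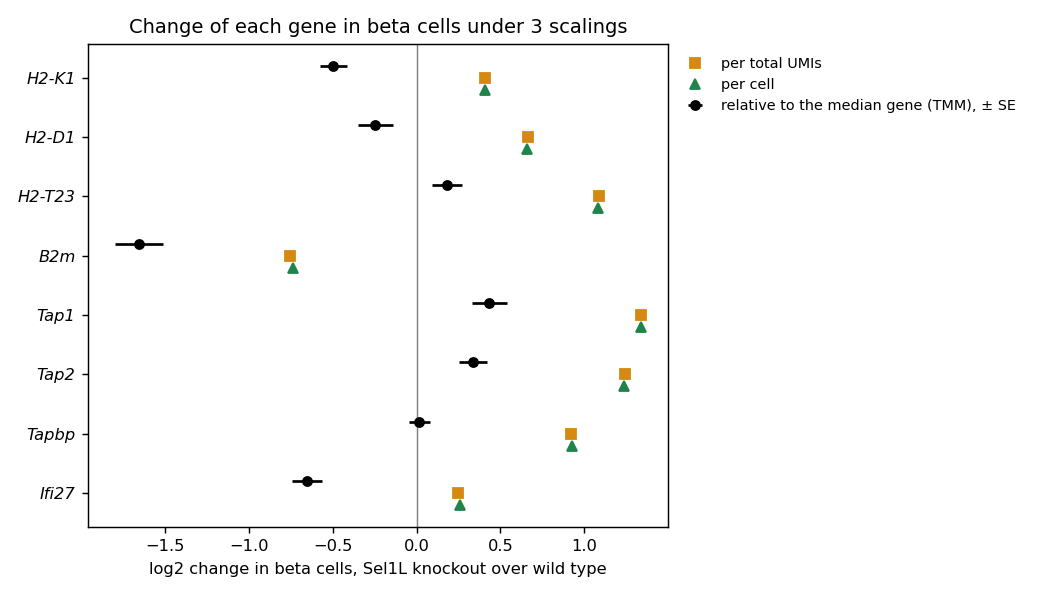
Log2 change of each gene in beta cells, Sel1L knockout over wild type, relative to the median gene (black, with SE), per total UMIs (orange squares) and per cell (green triangles). B2m lies below 0 on all 3 scalings at -1.66, -0.75 and -0.74, Tap1 and Tap2 lie above 0 on all 3, and H2-K1, H2-D1 and Ifi27 lie below 0 only relative to the median gene.

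In alpha and delta cells, which do not use the Ins1 promoter that drives Cre, 1 of the 8 genes was called in each. In alpha cells 10.1% of all 12678 genes were called lower and 6.95% higher, and in delta cells 5.31% of all 11622 genes were called lower and 3.7% higher. The gene was Ifi27 both times, lower, at -0.38 in alpha cells (SE 0.0960, edgeR adjusted p = 0.0212) and -0.43 in delta cells (SE 0.110, adjusted p = 0.0291). Its level was 36.0 and 39.6 CPM in knockout and 46.3 and 37.7 CPM in wild type alpha cells, and 49.9 and 44.6 CPM in knockout and 60.7 and 55.1 CPM in wild type delta cells. Neither was called per total UMIs (-0.17 and -0.28), and DESeq2 did not call the delta change. In alpha cells the call was lost without knockout library 1 (-0.35), knockout library 2 (-0.42) or wild type library 1 (-0.23), and in delta cells likewise (-0.54, -0.35 and -0.36). The genotypes overlapped in alpha but not in delta cells, and per cell the change turned to 0.39 in alpha and 0.24 in delta cells. B2m was at 22.1 and 34.6 CPM in knockout and 29.7 and 17.6 CPM in wild type alpha cells, so the genotypes overlapped (log2 change -0.03, SE 0.213). In delta cells it was at 26.5 and 29.9 CPM in knockout and 32.8 and 29.2 CPM in wild type libraries (-0.28, SE 0.131, adjusted p = 0.198).

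In macrophages and endothelial cells 0 of the 8 genes were called by edgeR, where 0.588% of all 7310 genes and 0.607% of all 8901 genes were called. At an unadjusted p under 0.05 there were 3 in macrophages and 1 in endothelial cells, and DESeq2 called 1 in macrophages. The smallest p-values were those of H2-D1 in macrophages, at 1662 and 1585 CPM in knockout and 2124 and 2034 CPM in wild type libraries (log2 change -0.45, SE 0.117, edgeR adjusted p = 0.110), and Tapbp in endothelial cells, at 154 and 165 CPM in knockout and 119 and 86.8 CPM in wild type libraries (0.58, SE 0.158, adjusted p = 0.108). The genotypes did not overlap for either gene. Wild type library 2 had the lowest endothelial level of H2-K1, H2-D1, H2-T23, B2m, Tap1, Tap2, Tapbp and Ifi27 alike.

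**Figure D5:**
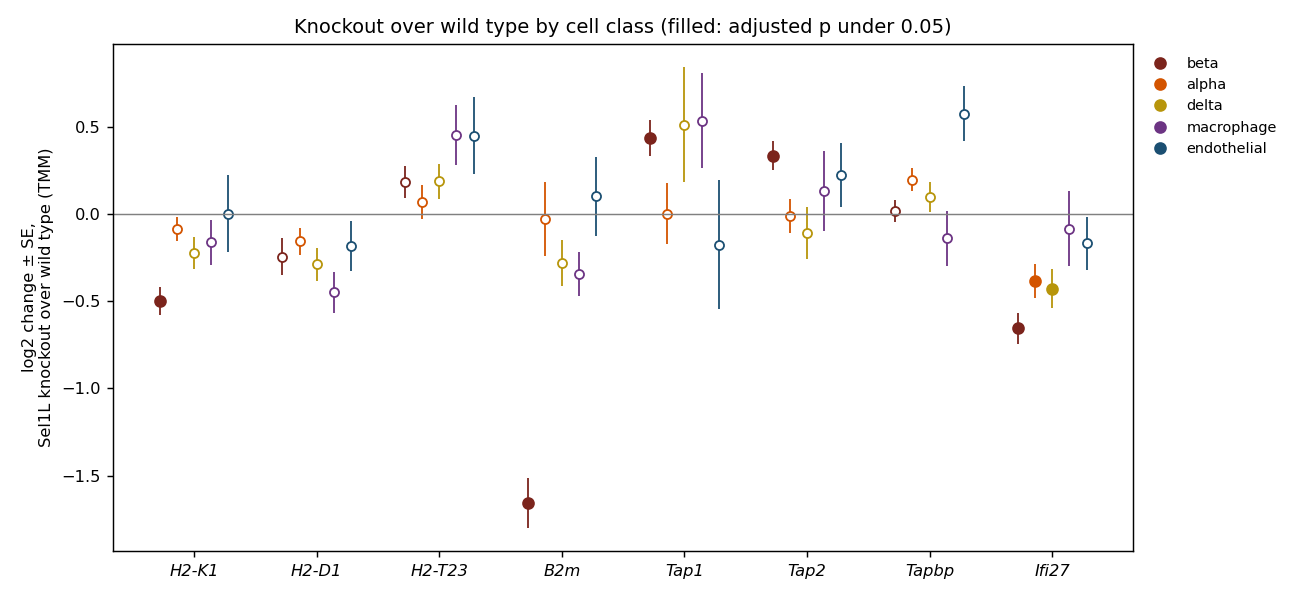
Log2 change of each gene relative to the median gene, Sel1L knockout over wild type (points, with SE), in 5 cell classes; filled points passed an adjusted p of 0.05. B2m in beta cells, at -1.66, lies apart from the values between -0.34 and 0.10 in the other 4 classes, and H2-K1, H2-D1 and Ifi27 turn above 0 in beta cells per total UMIs and per cell.

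Differences between these changes were tested directly as interactions of class and genotype. The B2m change in beta cells differed from that in alpha cells by -1.67 (SE 0.151, edgeR adjusted p = 1.6e-08), from that in delta cells by -1.36 (SE 0.145, adjusted p = 1.6e-06), from that in macrophages by -1.31 (SE 0.135, adjusted p = 1.5e-19) and from that in endothelial cells by -1.81 (SE 0.168, adjusted p = 3.3e-06). All 4 kept their sign and call under each of 17 alternatives. The p-value against macrophages is far smaller than that against endothelial cells, though its difference is no larger beside its SE. These fits share the spread across genes, so with 2 libraries per genotype the size of such p-values is not read as strength. Of the 8 genes, 4 differed between beta and alpha cells (26.4% of all genes), 3 between beta and delta cells (18.3%), 1 between beta cells and macrophages (5.01%) and 2 between beta and endothelial cells (5.5%). Tap2 was higher by 0.37 in the beta than in the alpha change (adjusted p = 0.0185) and by 0.46 than in the delta change (adjusted p = 0.0217). The H2-K1 change in beta cells differed from the alpha change by -0.41 (adjusted p = 1.7e-04) and from the delta change by -0.25 (adjusted p = 0.00848), signs that turned to 0.27 and 0.49 per total UMIs. The Tap2 difference from alpha cells was not called without knockout library 1 (0.31) or wild type library 1 (0.30), that from delta cells without knockout library 2 (0.38) or wild type library 2 (0.42), and the H2-K1 difference from delta cells without knockout library 1 (-0.21).

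Further genes of the pathway, of interferon responses and of class II presentation were read from 6 lists. Over all genes, 20.4% were called higher and 21.3% lower in beta cells. The shares were 6.95% and 10.1% in alpha and 3.7% and 5.31% in delta cells. They apply to every list below, and a count near them is no result about its list. Of 13 tested heavy chain genes and paralogs, 3 were higher and 1 lower in knockout beta cells (median 0.14, beside 0.00215 over all genes). H2-T22, a nonclassical heavy chain gene, rose by 1.19 (edgeR adjusted p = 1.1e-04), H2-M3, whose product presents formylated peptides, by 0.36 (adjusted p = 0.00385) and H2-Q4 by 0.21 (adjusted p = 0.0431), and the single lower one was H2-K1. In macrophages, where 0.219% of all genes were lower, 1 of 12 was, H2-Q7 at -0.95 (adjusted p = 0.0427), and in alpha, delta and endothelial cells 0 of 14, 0 of 11 and 0 of 11 were called by edgeR, with 0, 2 and 1 at an unadjusted p under 0.05 and 0 by DESeq2 in each. These paralogs share sequence with each other, so their separate counts are uncertain.

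Of 13 genes of peptide loading and trimming, 5 were higher and 2 lower in knockout beta cells (20.4% and 21.3% of all genes). Hspa5, the endoplasmic reticulum chaperone BiP, rose by 0.90 (edgeR adjusted p = 7.3e-04) and Calr, the calreticulin of the loading complex, by 0.78 (adjusted p = 0.00117), and Pdia3, its disulfide isomerase partner, by 0.42 (adjusted p = 0.00419). Tap1 and Tap2 were the other 2, and B2m and Erap1, the peptide-trimming aminopeptidase (-0.20, adjusted p = 0.0448), were lower. The sign of Erap1 turned to 0.70 per total UMIs. In delta cells, by contrast, Pdia3 was lower, at -0.52 (adjusted p = 0.00206) and Hspa5 at -0.45 (adjusted p = 0.00498), and in alpha cells 1 of 13, Calr, was higher by 0.24 (adjusted p = 0.0481). Per cell, the delta values of Pdia3 and Hspa5 turned to 0.16 and 0.23.

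Of 9 proteasome genes, 1 was higher and 6 lower in knockout beta cells (20.4% and 21.3% of all genes). The higher one was Psmb9, an immunoproteasome subunit that overlaps Tap1 on the other strand, by 0.29 (edgeR adjusted p = 0.0116). The constitutive subunits Psmb7 and Psmb5 were lower, at -0.54 (adjusted p = 0.00121) and -0.56 (adjusted p = 0.00352), and the activator subunit Psme2 at -0.53 (adjusted p = 0.00167); these 3 turned to 0.37, 0.35 and 0.37 per total UMIs. Psme2 was also lower in alpha cells, at -0.48 (adjusted p = 0.00216) and in delta cells, at -0.51 (adjusted p = 0.00472), and Psmb6 at -0.33 (adjusted p = 0.00816) and -0.44 (adjusted p = 0.0118). Per cell Psme2 turned to 0.30 in alpha and 0.16 in delta cells, and Psmb6 to 0.45 and 0.23. In alpha cells 1 of 9 was higher and 4 lower, in delta cells 0 and 2.

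Of 23 regulators of class I genes and interferon signalling, 6 were higher and 1 lower in knockout beta cells (20.4% and 21.3% of all genes). Stat2, a transducer of type I interferon signals, rose by 0.64 (edgeR adjusted p = 0.00424), Nfyb, a subunit of NF-Y, by 0.38 (adjusted p = 0.00332) and Irf1, a transcription factor that interferon gamma raises, by 0.37 (adjusted p = 0.00406). Jak1 was lower, at -0.25 (adjusted p = 0.0151) and turned to 0.65 per total UMIs. Nlrc5, the main activator of class I transcription, averaged 0.297 CPM in beta cells and was not called (-0.43, adjusted p = 0.308). Stat3, the transducer of interleukin 6 signals, was higher in alpha cells by 0.38 (adjusted p = 0.00671) and in delta cells by 0.71 (adjusted p = 0.00115).

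Of 35 interferon-stimulated genes tested, 5 were higher and 11 lower in knockout beta cells (20.4% and 21.3% of all genes). Their median change was -0.29. Isg20, an exonuclease, rose by 0.72 (edgeR adjusted p = 0.00129), Ifih1, the RNA sensor MDA5, by 0.65 (adjusted p = 0.00135) and Lgals3bp by 0.36 (adjusted p = 0.00572). Oas1a was lower, at -1.48 (adjusted p = 0.00215) and Rsad2 at -0.91 (adjusted p = 0.00208), both at 2.20 CPM or less on average, beside Ifi27. Oas1a kept its sign per total UMIs at -0.58, and Rsad2 stood at -0.0093 there. In alpha cells 3 of 30 were higher and 4 lower (6.95% and 10.1% of all genes). Gbp2, an interferon-induced GTPase, rose by 1.74 (adjusted p = 0.0403), and the chemokine gene Cxcl10 fell by 2.33 on the log2 scale (adjusted p = 7.7e-04). In delta cells 1 of 23, Lgals3bp, was higher by 0.35 (adjusted p = 0.0202) and 1, Ifi27, lower. In macrophages 0 of 30 and in endothelial cells 0 of 32 were called by edgeR, with 7 and 3 at an unadjusted p under 0.05 and 0 by DESeq2 in both.

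Class II presentation genes were near 0 in beta cells. Of 6 tested, H2-DMa was higher by 0.66 (edgeR adjusted p = 0.0173), and Cd74, the invariant chain, and Ctss, the protease cathepsin S, were lower, at -1.33 (adjusted p = 0.0286) and -1.15 (adjusted p = 0.0200). Cd74 averaged 1.66 CPM in beta cells and 19197 CPM in macrophages, so traces of macrophage RNA weigh on it, and their part in this change was not tested. The fall was not particular to beta cells. In alpha cells 4 of 6 were lower and 0 higher by edgeR (10.1% and 6.95% of all genes), with a median of -1.91, and DESeq2 called 0. In delta cells 0 of 5, in macrophages 0 of 9 and in endothelial cells 0 of 1 were called by edgeR, while DESeq2 called 1 in macrophages.

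Across 31 sums of class and library, H2-K1 was the one of the 7 presentation genes closest to their mean (Pearson r 0.98). Tap1 (0.91), Tap2 (0.89), H2-D1 (0.88), H2-T23 (0.84), B2m (0.76) and Tapbp (0.69) came next. Ifi27 was at 0.44 with that mean. The mean holds each of the 7 genes but not Ifi27, so the 7 are correlated in part with themselves and cannot be ranked against Ifi27. Of 9954 genes with at least 20 CPM in 1 sum or more, those outside the 8 whose log2 level was most like that mean were Tbk1 (r 0.96), Grk2 (0.96), Lpar6 (0.95), Smpdl3a (0.95) and Casp8 (0.94). The closest to Ifi27 were Smim15 (0.95), Jag1 (0.94) and Nfkbib (0.94). The sums share libraries, and classes differ in depth and in the room that hormones leave, so these values are descriptions.

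Within a class, single cells varied around these sums. The 7 presentation genes other than Ifi27 took a median of 11.9 and 10.5 UMIs per 10000 non-hormone UMIs in knockout beta cells, against 13.3 and 13.6 in wild type beta cells. The 10th and 90th percentiles were 8.12 and 16.7 in knockout library 1 and 8.39 and 19.7 in wild type library 1. The medians were 43.4 and 40.6 in knockout and 57.8 and 48.8 in wild type macrophages. Cells just outside the insulin cut, with 5% to 10% of UMIs from insulin, held 975 and 871 CPM of the 7 genes in knockout and 998 and 1164 CPM in wild type libraries, and those just inside, with 10% to 15%, held 910 and 774 CPM in knockout and 972 and 866 CPM in wild type libraries.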

How the data were processed

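The deposited values are counts, 1 table of UMIs by gene and cell for each library, which the authors made with Cell Ranger 3.0.0, Seurat 2.3.4 and the mm10 genome, per the submitters' processing notes. The deposited cells have at least 501 genes and at most 9.96% mitochondrial UMIs, and no further filter was applied. The members, lists and cell rules were chosen with earlier results of these data known. Cells meeting the rules of more than 1 class (72 and 51 knockout, 73 and 61 wild type) and cells meeting none (186 and 104 knockout, 102 and 80 wild type) were left out. No doublet caller was run. Mixed cells that met the beta rule and a rule of another lineage outside the endocrine classes numbered 27 and 13 in knockout and 33 and 33 in wild type libraries.

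UMIs were summed per class and library and scaled to CPM, with exact 95% Poisson intervals that cover counting error only. Genotypes were compared within a class with edgeR 4.0.16 in R 4.3.3 with limma 3.58.1: genes kept by filterByExpr, TMM scaling, the quasi-likelihood test, and p-values adjusted by Benjamini-Hochberg over all genes tested, with a threshold of 0.05. Classes and the interaction of class and genotype were compared with the library as a block. Classes needed 20 cells in every library, and the 5 classes named by the comparison were tested; Schwann, mesenchymal and PP cells are given as levels. Thinning used 2000 UMIs per cell. Alternatives were DESeq2 1.42.0, sums without hormone genes, RLE scaling, scaling by library size or by number of cells, a filter at a mean of 20 counts or none, other insulin and marker cuts, mixed cells kept, cells over the 95th percentile of UMIs left out, each library left out, and the replicate number as a block. Up to 3 genes each way are named per list, by smallest p in beta cells among those called, and up to 3 in other classes. Of 111 list genes, 107 are listed in the files.

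On simulated counts with 200 genes changed by 1 on the log2 scale, the test recovered 92% in beta cells with 3.66% false calls, 78% in macrophages with 4.88%, and 21% for the difference between beta and endothelial cells with 2.33%. Coordinates are from GENCODE vM21 and upstream windows from RefSeq. Sums and figures were made with pandas 2.3.3, NumPy 2.4.6, SciPy 1.17.1 and matplotlib 3.10.9 in Python 3.11.15.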

Additional observations from a re-analysis of the deposited data

Results flagged for a closer look

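Changes between genotypes that differed between beta cells and another class, by a test of the difference itself (edgeR, class by genotype, changes in beta cells minus those in the other class, log2 scale), are listed here for a closer look. For B2m the difference was -1.67 against alpha cells, -1.36 against delta cells, -1.31 against macrophages and -1.81 against endothelial cells. For Tap2 it was 0.37 against alpha and 0.46 against delta cells, and for H2-K1 -0.41 against alpha and -0.25 against delta cells. For Ifi27 it was -0.29 against alpha cells (SE 0.0861, adjusted p = 0.0153), with -0.21 against delta cells not called (adjusted p = 0.234). For Tapbp it was -0.58 against endothelial cells (SE 0.150, adjusted p = 0.0285), where wild type library 2 had the lowest level of the 4 libraries and the difference without it was -0.39 and not called. The Tapbp difference was not called in 4 of the 17 alternatives and reversed in 1. Ifi27 against alpha cells was not called without knockout library 1 (-0.24), knockout library 2 (-0.30) or wild type library 2 (-0.25), and was not called in 7 of 17 alternatives in all and reversed in 1, Tap2 was not called in 3 of 17 against either class, and H2-K1 against delta cells in 2 of 17 and reversed in 1. B2m kept sign and call in all 17 against each of the 4 classes.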

How the results depend on the processing

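Of 1125 values of single genes recomputed under alternatives, 1056 kept their sign and side of the threshold, 39 lost and 8 gained a call, and 22 changed sign. Scaling decided most changes of sign, by construction of the scale, since the median gene itself moved. With library size only, H2-K1, H2-D1 and Ifi27 in beta cells were 0.41, 0.66 and 0.24, H2-K1 and Ifi27 in beta minus alpha cells 0.27 and 0.40, H2-K1 in beta minus delta cells 0.49, Tapbp in beta minus endothelial cells 0.28, and Tapbp in beta over endothelial cells -1.06. The genes called were then 8 in beta, 2 in alpha, 8 in beta minus alpha, 7 in beta minus delta, 6 in beta minus macrophage and 5 in beta minus endothelial cells. Over all genes, 12972 of 14862 were called in beta and 3702 of 12678 in alpha cells under this scaling. Shares for the differences between classes are not given. With sums scaled by cell number, H2-K1, H2-D1 and Ifi27 were 0.41, 0.66 and 0.26 in beta cells, and Ifi27 0.39 in alpha and 0.24 in delta cells. Tap2 and Ifi27 were then 0.26 and 0.40 in beta over macrophage, Ifi27 0.43 in beta over endothelial, Tapbp 0.019 in alpha over macrophage, 0.19 in alpha over endothelial and 0.071 in delta over macrophage, and H2-T23 0.079 in delta over macrophage cells. The genes called were 8 in beta, 8 in alpha, 7 in delta, 8 in macrophages, 5 in endothelial and 1 in beta minus endothelial cells. Over all genes, 12993 of 14862 were called in beta, 11135 of 12678 in alpha and 8801 of 11622 in delta cells. In macrophages 5273 of 7310 and in endothelial cells 2911 of 8901 were called. Of the genes called, 97.4% to 99.9% were higher in each class.

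For the remaining changes the cause was not tested. Shares over all genes are not given beside the counts that follow, here and in the next paragraph. Those counts show only how calls moved with the setting and are no result about these genes. DESeq2 called 6 in beta cells, with H2-D1 added, 0 in delta, 1 in macrophages, 2 in beta minus alpha and 1 in beta minus endothelial cells. With no filter 2 were called in delta, 1 in macrophages, 1 in endothelial and 4 in beta minus endothelial cells. In beta minus endothelial cells 4 were called with hormone genes left out, 4 at 7 of 10 markers and 1 with mixed cells kept. Without cells over the 95th percentile of UMIs, 0 were called in delta cells, and Tapbp in beta cells was -0.0015. Without each library in turn, the genes called ran from 3 to 6 in beta, 0 to 1 in alpha, delta and macrophages, 0 to 2 in endothelial, 2 to 3 in beta minus alpha and beta minus delta, 1 to 2 in beta minus macrophage and 1 to 3 in beta minus endothelial cells. Tapbp in beta cells ran from -0.015 without wild type library 2 to 0.048 without knockout library 1. Ifi27 in alpha cells lost its call without knockout library 1, knockout library 2 or wild type library 1, and so did Ifi27 in delta cells.

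Replicate numbers did not pair the libraries: deviations of same-numbered libraries correlated at 0.041 in beta, 0.083 in alpha, 0.034 in delta, -0.17 in macrophage and -0.096 in endothelial cells. With the replicate number as a block, 2 genes were called in delta cells, against 1 without it. With the numbers crossed, an alternative chosen after seeing the data, 6 were called in beta cells, with H2-D1 added, 2 in delta, 1 in macrophages and 1 in endothelial cells.

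With 2 libraries per genotype and 56 to 121 macrophages in each, Tap1 rested on 20 to 40 UMIs per macrophage sum, and its change there had an SE of 0.270.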
